A study of Mus musculus with 14 samples.

Results

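The inflammasome and pyroptosis genes *Nlrp3*, *Pycard*, *Casp1*, *Casp4*, *Gsdmd*, *Aim2* and *Nlrc4* were followed in mouse liver. These 7 genes were chosen by name from the 17656 genes of the expression tables, and all 7 are listed there. Inflammasomes are protein complexes of the cytosol that respond to microbial products and cell damage. NLRP3, AIM2 and NLRC4 sense different signals, PYCARD (also called ASC) links a sensor to the protease CASP1, and CASP1 matures IL-1β and IL-18 and cleaves GSDMD. CASP4, the mouse protease also known as caspase-11, responds to cytosolic lipopolysaccharide and cleaves GSDMD without these sensors, and the freed part of GSDMD forms pores in the plasma membrane, which can end in lytic death (pyroptosis).

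RNA-seq was done on livers of wild type (WT) mice and of Ythdf1-/- mice (KO), both on the C57BL/6 background and, per the study's methods, 6 to 10 weeks old. YTHDF1 is a cytosolic protein that binds mRNA carrying N6-methyladenosine, and the KO is a germline line made with CRISPR/Cas9, so the deletion is present in every cell type and not in hepatocytes alone. Mice received an intravenous injection of Concanavalin A (ConA), a plant lectin that activates T cells and causes acute hepatitis, at 8 mg/kg, or saline, and livers were taken at 8 h. The groups were WT saline (n = 3 mice), KO saline (n = 3), WT ConA (n = 4) and KO ConA (n = 4), with 1 library per mouse.

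The deposited values are TPM, which give each gene's share of all transcripts after division by gene length, so that levels can be set side by side between genes. They keep no read depth. The spread between mice is therefore the only error available here, and no detection limit can be given for low genes. The TPM of *Ythdf1* itself ranged from 12.0 to 13.9 (WT) and from 18.4 to 20.8 (KO) after saline. After ConA it ranged from 18.7 to 25.6 (WT) and from 15.5 to 26.2 (KO). The study's drawing of the targeting strategy removes the third exon alone, so values over the whole gene are no test of the genotype. Among the WT saline livers, replicates 2 and 3 were close to each other, with a median size of the log2 difference per gene of 0.0735. In the other 17 pairs of replicates this was 0.120 to 0.418. WT ConA replicate 3 stood apart from the other WT ConA livers (0.383 to 0.418, against 0.176 to 0.191 among the others). The summed TPM of 7 hepatocyte markers lay between 109058 and 137216 in the saline livers and between 56246 and 84165 after ConA. Of these markers 4 in WT and 5 in KO were called lower after ConA, while *Tat* was called higher in both. The summed neutrophil markers were at 5.44 to 11.9 TPM in saline and at 328.0 to 987.1 TPM after ConA. In bulk tissue a change in the number of cells of a type and a change in RNA per cell cannot be told apart.

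All coordinates are those of GRCm38.p6. *Casp1* (chromosome 9, 5298517 to 5307281) and *Casp4* (chromosome 9, 5308849 to 5336791) are neighbours on the same strand, with 1567 bases between them. *Nlrp3* lies on chromosome 11 (59541569 to 59566955), *Pycard* on chromosome 7 (127991373 to 127993867), *Gsdmd* on chromosome 15 (75862144 to 75867408), *Aim2* on chromosome 1 (173349547 to 173466040) and *Nlrc4* on chromosome 17 (74426255 to 74459144). Of the 50-base stretches in the longest coding transcript, 100% in *Nlrp3*, *Casp1*, *Casp4* and *Gsdmd* occur in no other GENCODE vM21 gene. The share was 99.1% for *Aim2*, 98.9% for *Nlrc4* and 88.2% for *Pycard*, where the rest is shared mostly with the annotated gene *Gm45205*.

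The promoters of *Casp4*, *Nlrp3* and *Casp1* are shown because the first 2 of these genes had the largest ratios to saline among the members, while their neighbour *Casp1* did not follow. Each line gives the 250 bases before an annotated start from RefSeq, on the plus strand, with matches to the NF-kB motif in capitals. The sequences are those of *Casp4* before 5308849, chr9:5308599-5308848, *Nlrp3* before 59541569, chr11:59541319-59541568, and *Casp1* before 5298517, chr9:5298267-5298516.
Casp4: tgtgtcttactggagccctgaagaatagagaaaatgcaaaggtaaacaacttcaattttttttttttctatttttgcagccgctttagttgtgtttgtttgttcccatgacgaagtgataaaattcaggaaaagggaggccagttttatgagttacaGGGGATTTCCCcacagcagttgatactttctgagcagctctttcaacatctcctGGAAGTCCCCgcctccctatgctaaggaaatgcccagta
Nlrp3: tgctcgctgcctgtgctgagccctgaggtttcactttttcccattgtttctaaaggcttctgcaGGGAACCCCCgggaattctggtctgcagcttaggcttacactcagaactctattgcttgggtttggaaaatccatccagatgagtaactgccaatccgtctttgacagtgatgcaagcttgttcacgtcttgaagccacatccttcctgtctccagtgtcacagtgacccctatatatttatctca
Casp1: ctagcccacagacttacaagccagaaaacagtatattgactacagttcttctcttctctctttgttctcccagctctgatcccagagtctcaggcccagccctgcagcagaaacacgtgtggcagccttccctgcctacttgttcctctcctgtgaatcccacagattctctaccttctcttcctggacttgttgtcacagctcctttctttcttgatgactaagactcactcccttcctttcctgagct

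Promoter sequences were found for 6 of the 7 members, with 8 windows in total, since *Casp4* and *Nlrp3* each have an added start. Both strands were searched for the NF-kB motif, for an interferon regulatory factor motif (a pair of GAAA blocks with 2 bases between them), for the STAT motif TTCNNNGAA and for the AP-1 motif TGANTCA. The *Casp4* window held 3 NF-kB matches. The first 2 overlap and begin 93 and 92 bases before the start, and the other begins 39 bases before it. The window of the *Nlrp3* start shown held 1 match, 186 bases before the start. The other *Casp4* window, 11 bases downstream, held the same matches, and the remaining 5 windows, those of *Pycard*, *Casp1*, *Aim2*, *Nlrc4* and the second *Nlrp3* start, held none of the 4 motifs. Among 32851 RefSeq windows of the same length, 7.25% held the NF-kB motif, 2.98% the interferon regulatory factor motif, 7.02% the STAT motif and 6.75% the AP-1 motif. A match describes the letters and does not show binding.

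*Gsdmd*, the gene of the pore-forming substrate, was by far the most abundant member on the TPM scale. It made up 84.1% to 92.8% of the summed TPM of the 7 members in each of the 14 livers. In the WT saline livers it had 24.9, 22.1 and 21.0 TPM, and in the KO saline livers 17.2, 18.8 and 21.4 TPM. After ConA it had 78.5, 95.8, 76.1 and 90.5 TPM in WT and 81.6, 89.5, 81.3 and 84.1 TPM in KO. Every ConA liver was above every saline liver, and the genotypes overlapped under both treatments.

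**Figure D1:**
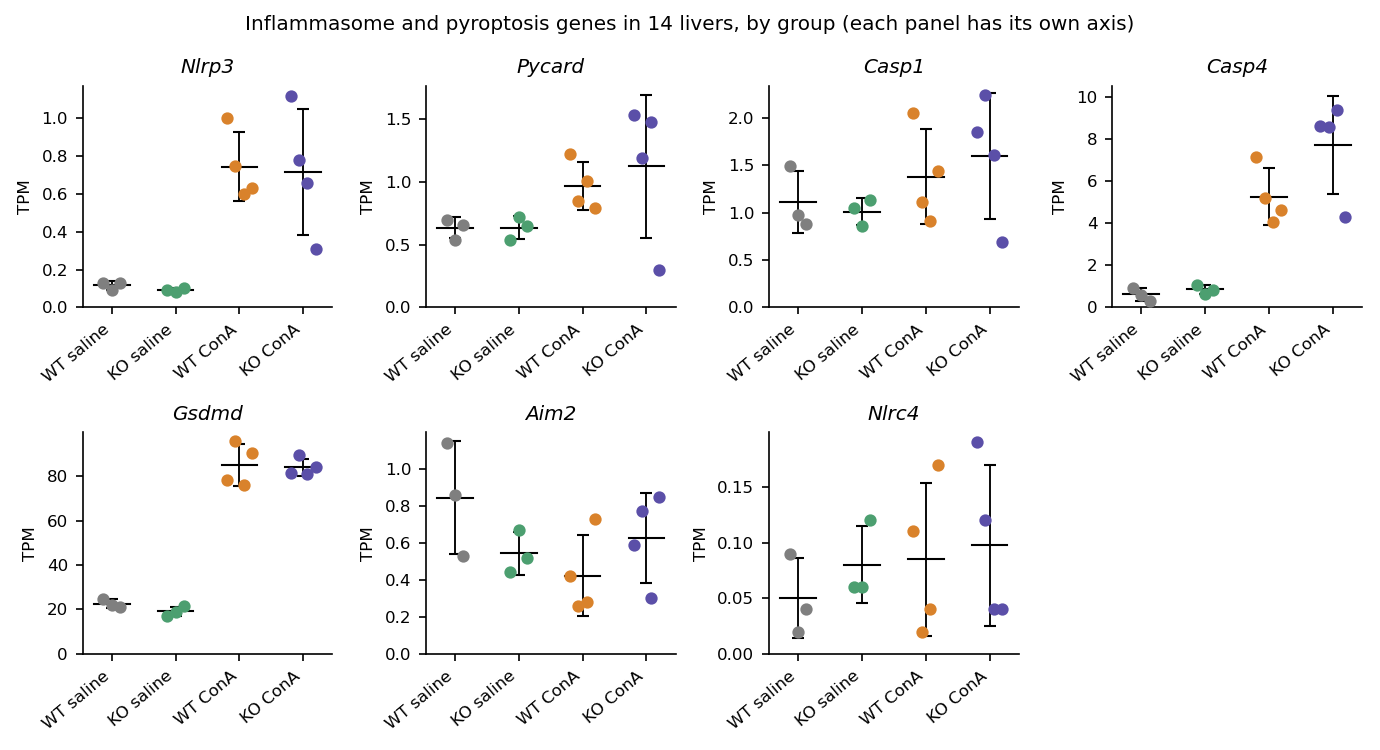
TPM of the 7 members in each liver (points), with the group mean (line) and SD (bars, n = 3 for saline and n = 4 for ConA), and an axis of its own for each gene. *Gsdmd*, *Casp4* and *Nlrp3* lie higher in all ConA livers than in all saline livers, and the lowest KO ConA point of *Nlrp3*, *Pycard*, *Casp1* and *Casp4* is replicate 4 in each case.

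The inflammatory caspase *Casp4* rose after ConA from levels near or below 1 TPM. WT saline livers had 0.94, 0.60 and 0.30 TPM and KO saline livers 1.06, 0.66 and 0.84 TPM. WT ConA livers had 7.16, 5.21, 4.07 and 4.66 TPM. KO ConA livers had 8.66, 8.58, 9.40 and 4.30 TPM, so 3 of them were above every WT ConA liver and replicate 4 lay within the WT range. The order of the members changed with this rise. *Casp4* had 0.341 to 1.01 times the TPM of its neighbour *Casp1* in the 6 saline livers, and 3.24 to 6.23 times in the 8 ConA livers.

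The sensor *Nlrp3* was low throughout. It had 0.13, 0.09 and 0.13 TPM in WT saline and 0.09, 0.08 and 0.10 TPM in KO saline. After ConA it had 1.0, 0.75, 0.60 and 0.63 TPM in WT and 1.12, 0.78, 0.66 and 0.31 TPM in KO. No saline liver reached a ConA liver in either genotype. The ConA mean was 6.39 times the saline mean in WT and 7.97 times in KO.

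The adaptor *Pycard* and the protease *Casp1* moved less. *Pycard* had 0.70, 0.54 and 0.66 TPM in WT saline, 0.54, 0.72 and 0.65 in KO saline, 1.22, 0.85, 1.01 and 0.79 in WT ConA and 1.53, 1.19, 1.48 and 0.30 in KO ConA. The WT groups did not overlap, and among the KO livers 3 of the 4 ConA values were above all saline values while replicate 4 was below all of them. *Casp1* had 1.49, 0.98 and 0.88 TPM in WT saline, 1.05, 0.86 and 1.13 in KO saline, 2.06, 1.11, 0.91 and 1.44 in WT ConA and 1.85, 2.25, 1.61 and 0.69 in KO ConA. Its WT groups overlapped, and in KO the ConA livers were again above all saline livers except replicate 4.

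The DNA sensor *Aim2* showed no common shift. It had 1.14, 0.86 and 0.53 TPM in WT saline, 0.44, 0.67 and 0.52 in KO saline, 0.42, 0.26, 0.28 and 0.73 in WT ConA and 0.59, 0.77, 0.30 and 0.85 in KO ConA, with overlap in each comparison of 2 groups. *Nlrc4*, whose product senses bacterial flagellin and secretion systems together with NAIP proteins, lay between 0.02 and 0.19 TPM in all 14 livers. In WT saline the means ran in the order *Gsdmd*, *Casp1*, *Aim2*, *Pycard*, *Casp4*, *Nlrp3*, *Nlrc4*. Between neighbours in this order the ranges over the WT saline livers were apart for *Gsdmd* and *Casp1* and for *Casp4* and *Nlrp3*, and they met or overlapped for the others. In the ConA livers of both genotypes *Gsdmd* and then *Casp4* came first and *Nlrc4* last in every liver. Between them the order was *Casp1*, *Pycard*, *Nlrp3*, *Aim2* in WT replicates 1 and 2 and KO replicates 1, 2 and 3. It differed in WT replicates 3 and 4 and in KO replicate 4.

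Groups were compared on log2(TPM + 1) with limma. A gene entered a fit if its TPM was at least 1 in n libraries, where n is the size of the smaller group. It was called where its p, adjusted over all genes tested (Benjamini-Hochberg), was under 0.05. On this scale the fold change of a low gene is understated. For ConA against saline, the exact permutation test of 4 mice against 3 cannot give a two-sided p below 0.0571, so this test cannot pass 0.05. In WT livers 3 members passed the filter, *Casp1*, *Casp4* and *Gsdmd*, and 2 of them were called, both higher after ConA, beside 53.0% of all 10768 tested genes (22.0% higher and 31.0% lower). *Gsdmd* rose by a log2 fold change of 1.86 (SE 0.13, adjusted p 6.41e-06). *Casp4* rose by 1.96 (SE 0.20, adjusted p 5.09e-05). *Casp1* had a log2 fold change of 0.16 with a 95% confidence interval of -0.27 to 0.58 (adjusted p 0.513). The exact p was 0.0571 for *Gsdmd* and for *Casp4*, and 0.514 for *Casp1*. *Casp4* passed the filter through the ConA livers alone, since no WT saline liver reached 1 TPM.

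In KO livers 4 members passed the filter and 2 were called, again *Gsdmd* and *Casp4* and both higher after ConA, beside 64.6% of all 10988 tested genes (33.9% higher and 30.7% lower). *Gsdmd* rose by a log2 fold change of 2.08 (SE 0.12, adjusted p 1.38e-07). *Casp4* rose by 2.19 (SE 0.24, adjusted p 1.37e-05). *Casp1* had a log2 fold change of 0.33 (95% confidence interval -0.14 to 0.80, adjusted p 0.192), and *Pycard* had 0.33 (-0.16 to 0.82, adjusted p 0.212). Replicate 4 decided these last values. Without it *Casp1* had a log2 fold change of 0.52 (adjusted p 0.0167) and *Pycard* one of 0.55 (adjusted p 0.00826), so that 4 members were called, beside 60.4% of all genes. *Pycard* passed the filter in KO through the ConA livers alone, since no KO saline liver reached 1 TPM. For *Casp4* 1 KO saline liver reached 1 TPM, so it too needed the ConA livers to pass.

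*Nlrp3*, *Aim2* and *Nlrc4* did not reach the filter in any of these comparisons. Fitted over all 17656 genes without a filter, *Nlrp3* had a log2 fold change after ConA of 0.64 in WT (SE 0.081, adjusted p 0.00167) and of 0.63 in KO (SE 0.15, adjusted p 0.0144), and both were called. In that fit 35.0% of all genes were called in WT and 44.4% in KO. *Pycard* in WT had 0.26 in the same fit (adjusted p 0.0621) and was not called. *Aim2* had -0.37 in WT (adjusted p 0.116) and 0.066 in KO (adjusted p 0.722), and *Nlrc4* had 0.046 and 0.021 (adjusted p 0.555 and 0.787).

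**Figure D2:**
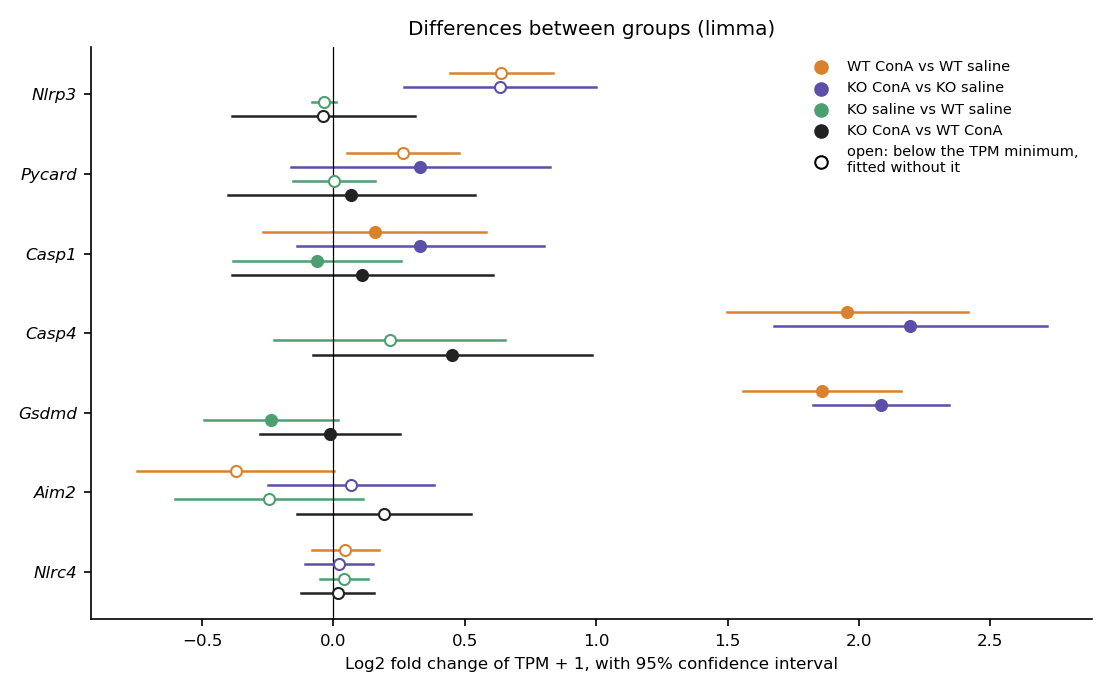
Log2 fold change of TPM + 1 of each member with its 95% confidence interval (limma) in 4 comparisons of groups. Filled points come from the fit of genes above the TPM minimum, and open points from the fit without a minimum. The intervals of *Casp4* and *Gsdmd* after ConA have lower ends of 1.498 to 1.82, and every interval of KO against WT spans 0.

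The question of the knockout is whether loss of YTHDF1 changed these genes. In KO ConA against WT ConA, 0 of the 4 tested members were called, beside 0.428% of all 10519 tested genes. At an unadjusted p under 0.05 the count over the members was also 0, beside 16.7% of all genes. *Casp4* was below that limit in 3 alternatives, with p 0.00798 without KO replicate 4, 0.0421 without WT replicate 1 and 0.0449 with the replicate number as a block in limma, and in none of them was it called after adjustment. *Gsdmd* had a log2 fold change of -0.013 (95% confidence interval -0.28 to 0.25, adjusted p 0.970, exact permutation p 0.886). *Casp4* had 0.45 (-0.079 to 0.98, adjusted p 0.383, exact permutation p 0.114), with 3 of 4 KO livers above all WT livers. Without KO replicate 4 its log2 fold change was 0.68, still not called, beside 0.0468% of all genes. *Casp1* had 0.11 (-0.39 to 0.61, adjusted p 0.853) and *Pycard* 0.068 (-0.40 to 0.54, adjusted p 0.907). The smallest two-sided p of 4 against 4 mice is 0.0286.

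In KO saline against WT saline, 0 of the 2 tested members were called, beside 19.2% of all 10459 tested genes (6.30% higher and 12.9% lower). At an unadjusted p under 0.05 the count was 0 as well, beside 38.8% of all genes. *Gsdmd* had a log2 fold change of -0.24 (95% confidence interval -0.49 to 0.018, adjusted p 0.152). *Casp1* had -0.064 (-0.38 to 0.26, adjusted p 0.761). The exact permutation p was 0.200 and 0.800, and 3 against 3 mice cannot go below 0.10. With WT saline replicates 2 and 3 averaged as 1 mouse, 0.459% of all genes were called in this comparison, and still 0 members.

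The interaction term asks whether WT and KO livers responded to ConA by different amounts, with all 14 livers in the fit. It was called for 0 of the 4 tested members, beside 4.78% of all 11327 tested genes, and at an unadjusted p under 0.05 also for 0, beside 25.3%. The difference of the log2 fold changes, KO minus WT, was 0.22 for *Gsdmd* (95% confidence interval -0.13 to 0.58, adjusted p 0.407), 0.24 for *Casp4* (-0.46 to 0.94, adjusted p 0.668), 0.17 for *Casp1* (-0.46 to 0.81, adjusted p 0.732) and 0.066 for *Pycard* (-0.51 to 0.64, adjusted p 0.896). The interval of *Casp4* was the widest of the 4.

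KO ConA replicate 4, the lowest KO ConA liver for *Nlrp3*, *Pycard*, *Casp1* and *Casp4*, was also the lowest of its group in markers of macrophages and neutrophils. The summed TPM of 11 Kupffer cell and macrophage markers was 58.8, 50.5, 77.7 and 21.2 in the KO ConA livers and 85.3, 25.3, 24.1 and 23.5 in the WT ConA livers. The liver with the highest sum among WT ConA, replicate 1, also had the highest WT ConA value of *Nlrp3*, *Pycard*, *Casp1* and *Casp4*. Among KO ConA, replicate 3 had the highest sum and the highest *Casp4* value. *Nlrp3* and *Pycard* were highest in KO replicate 1 (1.12 and 1.53 TPM, against 0.66 and 1.48 in replicate 3). *Casp1* was highest in KO replicate 2 (2.25 TPM, against 1.61 in replicate 3). The sum of 11 neutrophil markers was 935.9, 987.1, 775.6 and 427.7 in KO ConA and 580.4, 328.0, 368.3 and 489.9 in WT ConA. Markers of sinusoidal endothelial cells (6 genes, 35.8, 22.8, 31.3 and 13.0 TPM) and of stellate cells (6 genes, 99.5, 97.2, 92.7 and 50.3 TPM) were also lowest in replicate 4 of the KO ConA livers. The low sums of T cell (6.51 TPM), NK cell (2.75 TPM) and B cell markers (0.82 TPM) were lowest in that liver as well. The monocyte and hepatocyte sums did not have their lowest KO ConA value there. The monocyte sum was 380.8 TPM in replicate 3 against 439.8 TPM in replicate 4, and replicate 1 was lowest for the hepatocyte markers. *Fn1* alone held 326.53 TPM of the monocyte sum in replicate 3 and 410.65 TPM in replicate 4. Of the other monocyte markers, *Ly6c2*, *Lyz2*, *S100a4* and *Chil3* were lowest in replicate 4, and *Ccr2*, *Itgam* and *Cx3cr1* in replicate 3. None of these markers was listed at 0 in all livers of a ConA group. *Gsdmd* did not follow the macrophage sum, with 84.1 TPM in KO replicate 4 against 81.3 to 89.5 TPM in the others of its group. The macrophage sum was 56.6 to 205.8 TPM in the saline livers and 21.2 to 85.3 TPM in the ConA livers, whereas *Casp4* and *Nlrp3* were higher after ConA. The 11 markers of this sum did not all fall. In WT 9 were called lower after ConA and 0 higher. In KO 4 were called lower and 1 higher, and 2 had a higher mean. Among the KO livers the lowest *Cd68* value after ConA (5.19 TPM) was above the highest after saline (4.31 TPM). The part of these cells in the values of the members was not tested.

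**Figure D3:**
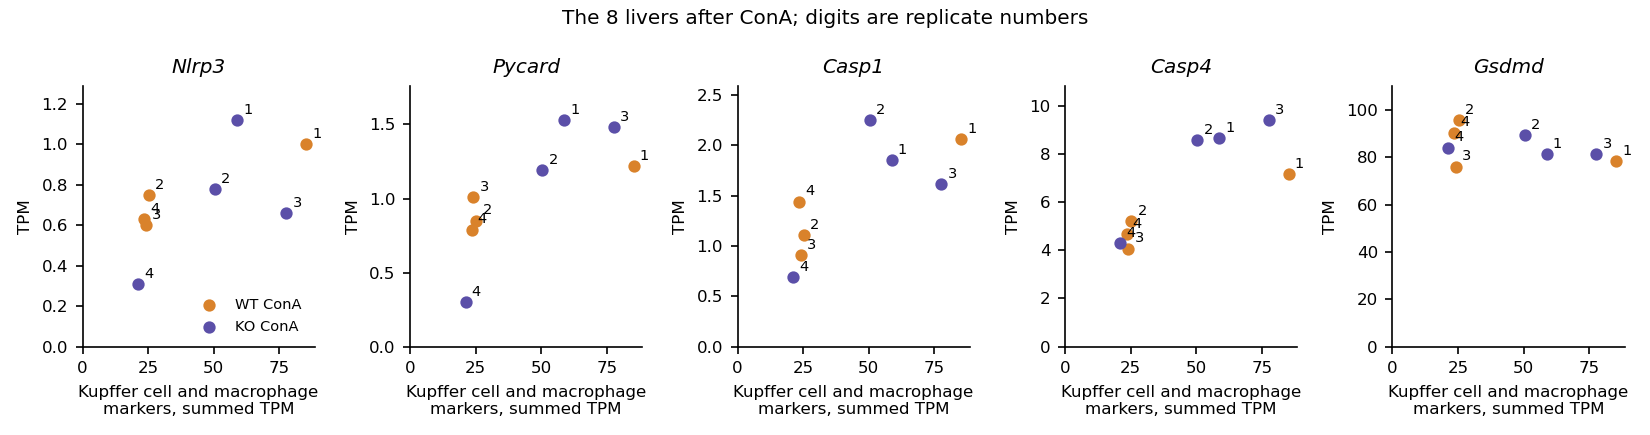
TPM of 5 members (vertical axes) against the summed TPM of 11 Kupffer cell and macrophage markers (horizontal axes) in the 8 ConA livers, WT in orange and KO in violet, with replicate numbers beside the points. KO replicate 4 (sum 21.2) lies beside WT replicates 2, 3 and 4 (23.5 to 25.3) for *Casp4*. For *Nlrp3*, *Pycard* and *Casp1* it lies below those WT livers, and *Gsdmd* is alike at low and high sums.

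The genes whose pattern over the 14 livers was most like that of a member were found by Pearson's r of log2(TPM + 1) among 11323 genes. The livers fall into the same 4 groups for every gene, so a difference between groups enters each r. No r within groups was computed. For *Gsdmd* they were *Hip1r* (r 0.996) and *Saa2* (0.994), the latter an acute-phase serum amyloid. For *Casp4* they were *Srgn* (0.995), the proteoglycan of secretory granules in blood cells, and *Procr* (0.992), the protein C receptor. For *Nlrp3* they were *Gm38525* (0.983) and *Pmaip1* (0.981), the latter a BH3-only protein also called NOXA. *Casp1* was most like *Fcgr1* (0.891), the high-affinity IgG receptor of monocytes and macrophages, and *Nckap1l* (0.886), a gene of blood cells. *Pycard* was most like *Entpd1* (0.874) and *Csf2rb2* (0.871). *Aim2* was most like *Zfp992* (0.839) and *Zfp512* (0.800), and *Nlrc4* like *Fbxo44* (0.878) and *Klhl6* (0.844).

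The pathway around the members was described with 7 further lists of genes. Over these lists together, 28 of 49 tested genes were called after ConA in WT, or 57.1% (40.8% higher and 16.3% lower), beside the 53.0% of all genes given above (22.0% higher and 31.0% lower). In KO it was 42 of 53, or 79.2% (66.0% higher and 13.2% lower), beside 64.6% (33.9% higher and 30.7% lower). A list whose share of calls is near these shares of all genes shows nothing particular to it. Among 12 other sensors, 4 passed the filter in WT ConA against WT saline, of which 2 were called higher and 1 lower, with a median log2 fold change of 0.69 (all tested genes -0.072). In KO the counts were 3 higher and 1 lower of 4, with a median of 1.04 (all tested genes 0.069). *Zbp1*, a sensor of Z-form nucleic acids that links to necroptosis, rose from 5.54 to 11.6 TPM in the 6 saline livers to 132.9 to 193.5 TPM after ConA (log2 fold change 4.12 in WT, adjusted p 2.95e-07, and 4.32 in KO, adjusted p 3.94e-08). *Nlrp6* fell, by 1.19 on the log2 scale in WT (adjusted p 4.62e-05) and by 1.70 in KO (adjusted p 4.40e-06). *Nlrp12* rose by 1.28 in WT (adjusted p 9.00e-04) and 1.60 in KO (adjusted p 1.36e-05). The remaining KO call was *Naip2*. The NAIP genes share many 50-base stretches with each other, and 63.1% to 80.6% of them are found in no other gene.

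Of 12 activating partners, 10 were tested in WT, with 8 called higher and 1 lower and a median log2 fold change of 4.0, and 11 in KO, with 10 higher and 0 lower and a median of 4.49. Among them are interferon-inducible guanylate-binding proteins, which help to open bacterial vacuoles and expose lipopolysaccharide to CASP4, and their regulators. *Gbp2* rose from 2.52 to 4.59 TPM in the saline livers to 463.9 to 1300 TPM after ConA (log2 fold change 7.43 in WT, adjusted p 3.58e-07, and 8.16 in KO, adjusted p 1.10e-10). *Gbp5* rose by 5.08 in WT (adjusted p 4.78e-06) and by 5.66 in KO (adjusted p 4.81e-10). *Gm12250*, an interferon-inducible GTPase known as Irgb10, rose by 5.45 (adjusted p 5.91e-06) and 6.18 (adjusted p 3.79e-10). In WT saline 1 liver reached 1 TPM for *Gbp5* and 2 for *Gm12250*, and in KO saline 2 and 1. Both genes thus needed the ConA livers to pass the filter. *Irf1*, the transcription factor that drives several of these GTPase genes, rose by 3.42 (adjusted p 2.10e-06) and 4.49 (adjusted p 4.36e-10). The lowest ConA value of *Gbp2*, *Gbp5* and *Irf1* was that of WT replicate 3.

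*Txnip*, whose product binds thioredoxin and has been tied to NLRP3, was the activating partner that fell in WT. It had 94.0, 84.8 and 87.8 TPM in WT saline and 34.9, 43.5 and 53.0 TPM in KO saline. After ConA it had 26.1, 17.6, 14.1 and 24.9 TPM in WT and 35.8, 28.2, 50.01 and 34.1 TPM in KO. KO was thus below WT in every saline liver and above WT in every ConA liver. In WT it fell by 2.09 on the log2 scale (adjusted p 3.91e-05), and in KO the log2 fold change was -0.25 (adjusted p 0.291). The interaction was 1.85 (adjusted p 0.0115), and it was called in all 21 alternatives of the fit, with 0.0494 the highest adjusted p. Of its 50-base stretches 81.6% are found in no other gene, and most of the rest is shared with *Gm15441*, a lncRNA. Whether reads were counted by strand is not stated.

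Of 8 restraining factors, 7 were tested, with 3 called higher and 2 lower in WT (median 0.45) and 4 higher and 2 lower in KO (median 0.97). *Tnfaip3*, the ubiquitin-editing protein A20, rose by 3.94 in WT (adjusted p 4.22e-06) and 4.67 in KO (adjusted p 3.89e-09). *Trim30a* rose by 2.30 (adjusted p 5.51e-04) and 3.12 (adjusted p 7.44e-08). *Pstpip1*, which binds pyrin and whose action as a restraint was not tested, rose by 1.21 (adjusted p 1.66e-04) and 0.97 (adjusted p 0.00184). *Tnfaip3* and *Pstpip1* passed the filter through the ConA livers alone, since no saline liver reached 1 TPM for either. *Nfe2l2* (NRF2) had 0.45 in WT (adjusted p 0.195) and rose by 1.23 in KO (adjusted p 1.72e-05), and its interaction was not called (0.78, adjusted p 0.147). The genes that fell were *Nlrx1* and the protease inhibitor *Serpinb1a* in both genotypes, named after their values were seen.

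The 7 cytokine substrates and decoys gave 4 higher and 2 lower calls in each genotype, of 6 tested genes in WT (median 1.64) and 7 in KO (median 1.92). Both cytokines that CASP1 matures were called, in opposite directions. *Il1b* rose by 1.76 in WT (adjusted p 2.07e-04) and 2.64 in KO (adjusted p 1.89e-06), from 0.37 to 1.79 TPM in saline to 4.92 to 10.3 TPM after ConA. In KO it passed the filter through the ConA livers alone, since no KO saline liver reached 1 TPM. *Il18*, named after its values were seen, fell by 1.82 in WT (adjusted p 1.89e-05) and by 1.47 in KO (adjusted p 1.45e-05), from 18.9 to 25.2 TPM in saline to 5.26 to 7.72 TPM after ConA. Among the genes that hold these cytokines back, *Il18bp*, *Il1r2* and *Il1rn* rose and *Sigirr*, an inhibitory receptor of the same family, fell (-0.82 in WT, adjusted p 0.0138, and -0.74 in KO, adjusted p 0.00218). *Il18bp*, the IL-18 binding protein, rose by 1.53 (adjusted p 1.61e-05) and 1.92 (adjusted p 1.32e-05). *Il1r2*, the decoy receptor of IL-1, was listed at 0 in all WT saline livers and in 2 of the KO saline livers and had 5.59 to 13.6 TPM after ConA. It thus passed the filter through the ConA livers alone in both genotypes.

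*Il1rn*, the IL-1 receptor antagonist, had 3.19, 4.67 and 5.67 TPM in WT saline and 0.99, 2.07 and 1.95 TPM in KO saline. After ConA it had 130.2, 197.0, 117.8 and 289.2 TPM in WT and 285.0, 317.9, 295.2 and 473.6 TPM in KO. The saline genotypes did not overlap, and after ConA 3 KO livers were above all WT livers. It rose by 5.0 in WT (adjusted p 2.55e-06) and 7.0 in KO (adjusted p 1.40e-09). The interaction was 2.01 (adjusted p 0.0255), and without KO ConA replicate 4 it was 1.84 (adjusted p 0.0506). The interaction of *Irf1* was 1.06 (adjusted p 0.0307), and 1.07 without that liver (adjusted p 0.0573). With WT saline replicates 2 and 3 averaged, the adjusted p was 0.0885 for *Il1rn* and 0.0955 for *Irf1*.

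**Figure D4:**
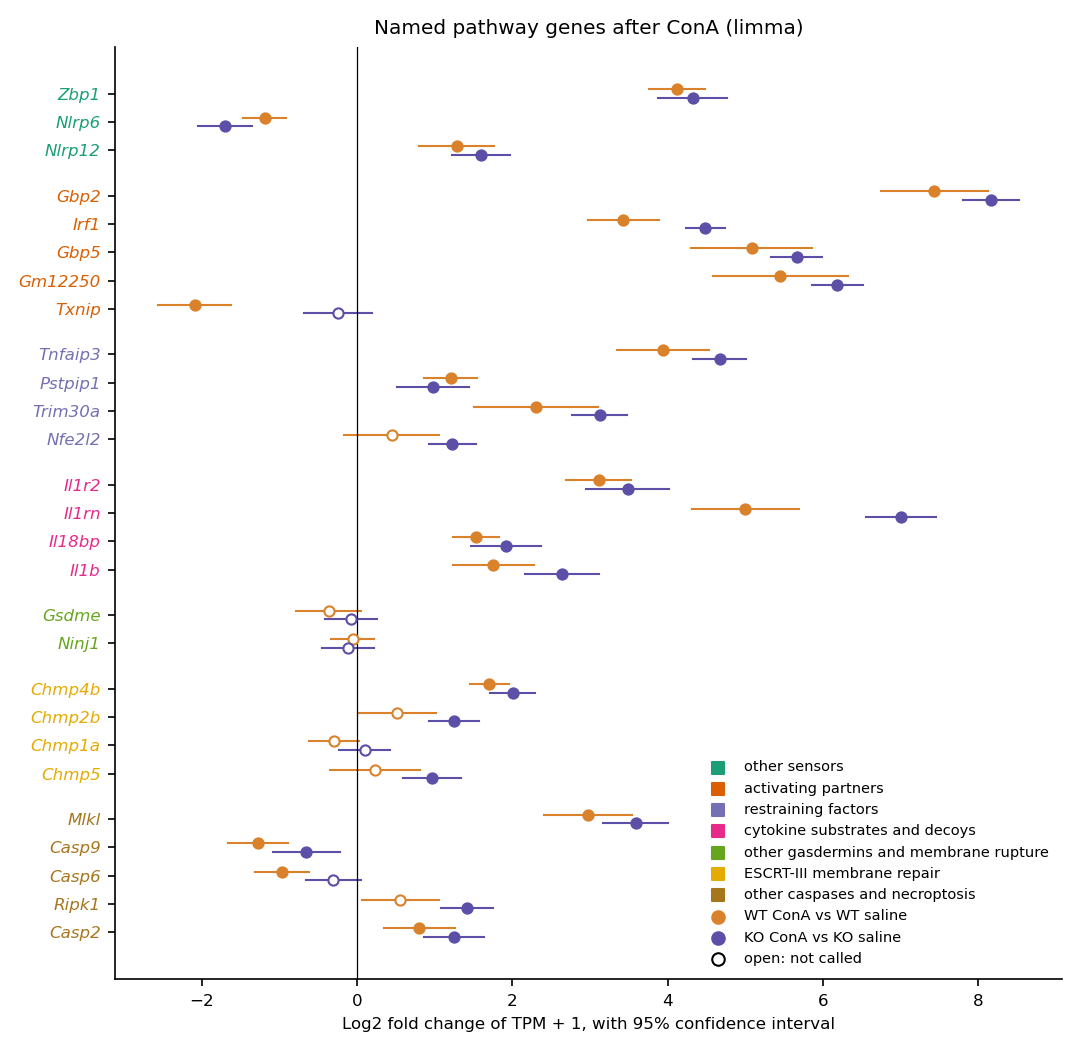
Log2 fold change of TPM + 1 after ConA with its 95% confidence interval (limma) for the named pathway genes, WT in orange and KO in violet, with gene names coloured by list and open points for genes not called. *Gbp2* lies farthest to the right in both genotypes, *Txnip* falls in WT alone (-2.09 against -0.25), and *Gsdme* and *Ninj1* lie near 0.

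Among the other gasdermins and the membrane rupture gene *Ninj1*, 6 of 9 genes are in the tables and 2 passed the filter, with 0 called in either genotype. *Ninj1*, whose product ruptures the membrane of dying cells, was abundant at 115.4 to 171.1 TPM and had log2 fold changes of -0.058 in WT (adjusted p 0.716) and -0.12 in KO (adjusted p 0.526). *Gsdme* had -0.37 (adjusted p 0.128) and -0.08 (adjusted p 0.651). *Gsdmd* was the most abundant gasdermin in each liver, with *Gsdme* at 0.61 to 2.04 TPM and the 4 other gasdermins at 0 to 0.24 TPM.

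The ESCRT-III proteins shed damaged membrane and can close GSDMD pores. The list held 12 genes, those of ESCRT-III proteins and of their partners *Vps4a*, *Vps4b* and *Pdcd6ip*. Of these, 11 were tested in WT, with 1 called higher and 0 lower (median 0.15). In KO 12 were tested, with 8 higher and 1 lower (median 0.57). *Chmp4b* rose by 1.70 in WT (adjusted p 3.72e-06) and 2.0 in KO (adjusted p 3.53e-07), from 48.2 to 54.3 TPM to 154.5 to 239.7 TPM. *Chmp2b* had 0.52 in WT (adjusted p 0.0769) and rose by 1.25 in KO (adjusted p 2.56e-05). *Chmp5* had 0.23 (adjusted p 0.481) and rose by 0.96 (adjusted p 5.18e-04). *Chmp1a* was not called in either genotype (-0.30 and 0.10, adjusted p 0.106 and 0.597). The interaction was called for 0 of the 12 genes, so the unequal counts are not a tested difference. WT ConA replicate 3 decided the WT count, which was 6 higher and 1 lower without it. The calls over all genes also rose without that liver, to 7048 of 10692 (3439 higher and 3609 lower) from 5704 of 10768.

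Of 10 genes of other caspases and of necroptosis, 9 were tested in WT, with 2 higher and 2 lower (median 0.14), and 10 in KO, with 6 higher and 1 lower (median 0.54), which is near the share of calls among all genes. *Mlkl*, which forms the membrane lesion of necroptosis, rose from 2.19 to 4.40 TPM in saline to 23.5 to 50.95 TPM after ConA (log2 fold change 2.97 in WT, adjusted p 1.60e-05, and 3.59 in KO, adjusted p 9.47e-08). *Casp2* rose by 0.80 (adjusted p 0.00833) and 1.25 (adjusted p 9.45e-05). It passed the filter through the ConA livers alone, since no saline liver reached 1 TPM. *Ripk1* had 0.56 in WT (adjusted p 0.0570) and rose by 1.42 in KO (adjusted p 1.35e-05). *Casp9* fell by 1.28 in WT (adjusted p 2.60e-04) and by 0.65 in KO (adjusted p 0.0122), and *Casp6* fell by 0.97 in WT (adjusted p 6.75e-04) and had -0.30 in KO (adjusted p 0.121). Without WT ConA replicate 3 the WT counts were 4 higher and 2 lower, beside 7048 of all 10692 genes (3439 higher and 3609 lower).

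Between the genotypes after ConA, 0 of 52 tested genes of the 7 lists were called, beside 0.428% of all tested genes. An unadjusted p under 0.05 (limma) was found for 16 of the 52, a larger share than the 16.7% of all tested genes (1753 of 10519). The lists were chosen with earlier results of these data known. The medians of the log2 fold changes ran from 0.12 for the cytokine substrates and decoys to 0.46 for the activating partners, beside 0.055 for all tested genes. Without WT ConA replicate 3 the median of all tested genes was -0.029. In saline, 8 of 44 tested genes of the lists were called, or 18.2% (2.27% higher and 15.9% lower), near the 19.2% of all genes. KO livers had 3 activating partners called lower (*Irf1*, *Nek7* and *Txnip*), 3 cytokine substrates and decoys called lower (*Il18*, *Il18bp* and *Il1rn*), *Ripk1* called lower and *Chmp2a* called higher, some of them named after their values were seen. With WT saline replicates 2 and 3 averaged, 0 of these were called. The interaction was called for 3 of 55 tested genes of the lists, or 5.45%, near the 4.78% of all genes. These were *Irf1* and *Txnip* among 11 activating partners and *Il1rn* among 7 cytokine substrates and decoys, with 0 genes of the other 5 lists.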

How the data were processed

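RNA of 14 mouse livers was sequenced by the authors on a BGISEQ-500, single-end, 50 bases. The authors deposited TPM values for 17656 genes per library. The submitters' processing notes name Bowtie2, RSEM 1.3.1 and GRCm38.p6, whereas the study's methods name STAR and HTSeq. The annotation and the gene filter are not given in the sources used here. TPM keep no depth, so count tests, the edgeR test of the study's methods among them, were not used.

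Groups follow the sample labels, which also give the replicate numbers and call the livers biological replicates. The members and the lists were chosen with earlier results of these data known. Named are the 7 members, from each list the 3 genes with the smallest p after ConA in each genotype and every gene called between genotypes after ConA or in the interaction, and the 2 genes most like each member.

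In R 4.3.3, log2(TPM + 1) was fitted with limma 3.58.1 (eBayes, trend), with a TPM minimum of 1. A comparison held its 2 groups alone, and the interaction held all 14 livers. The fits were tested on simulated data. Exact permutation tests were two-sided. RefSeq promoters and GENCODE vM21 transcripts were used for sequence. Other steps used pandas 2.3.3, SciPy 1.17.1 and, for plots, matplotlib 3.10.9 in Python 3.11.15. The alternatives were a pseudocount of 0.1, a TPM minimum of 5 and none, libraries rescaled by their median ratio, a robust eBayes, all 14 libraries in each fit, the replicate number as a block, each liver left out, and WT saline replicates 2 and 3 averaged as 1 mouse.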

Additional observations from a re-analysis of the deposited data

Results flagged for a closer look

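*Casp4* in KO ConA replicate 4 had 4.30 TPM, while the other 3 KO ConA livers had 8.58 to 9.40 TPM, so this liver lay far from the rest of its group. Among 68 groups of 4 livers examined, over 34 genes, it was the 1 with a liver this far apart. Chance gives about 1 in 20 groups, so this is fewer than chance would give. The same liver was the lowest of its group for *Nlrp3*, *Pycard* and *Casp1*. It was also lowest in the summed macrophage, neutrophil, T cell, NK cell, B cell, sinusoidal endothelial and stellate cell markers. In the summed monocyte and hepatocyte markers it was not the lowest. Most of the monocyte sum was *Fn1*. Of the other monocyte markers, *Ly6c2*, *Lyz2*, *S100a4* and *Chil3* were lowest in this liver, and *Ccr2*, *Itgam* and *Cx3cr1* were not. The part of these cells in the *Casp4* value was not tested.

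By the interaction term, 3 of 55 tested genes of the pathway lists responded differently to ConA in WT and KO, or 5.45%, which is near the 4.78% of all tested genes. It was 1.06 for *Irf1*, 1.85 for *Txnip* and 2.01 for *Il1rn* on the log2 scale, KO minus WT. All 3 were lower in KO than in WT in the saline livers, a difference that is itself part of the interaction term. With WT saline replicates 2 and 3 averaged, these saline differences were not called. *Txnip* was called in each of the 21 alternatives, *Il1rn* in 16 and *Irf1* in 14, with adjusted p up to 0.0930 and 0.0957 for the latter.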

How the results depend on the processing

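The members with a main fit, *Casp1*, *Casp4*, *Gsdmd* and *Pycard*, kept direction and side of the threshold in 246 of 261 alternatives. In 11 the direction changed and in 4 a member became called. *Nlrp3*, *Aim2* and *Nlrc4* are not in this count. The robust eBayes, the fit of all 14 libraries and the other TPM minima leave the log2 fold change as it was, so direction could not change there. *Gsdmd* and *Casp4* were called higher after ConA in each alternative that tested them. With a TPM minimum of 5, 1 member was called in WT, since *Casp4* was no longer tested. In KO, 4 members were called without KO ConA replicate 4 and 4 with the replicate block, *Casp1* and *Pycard* added. In that block replicate 4 has no saline partner and does not enter the estimate, so both fits rest on the same livers. Of 13 same-numbered pairs of livers, 6 had correlated deviations above 0.1 (-0.256 to 0.488). Between treatments of a genotype the correlations ran from -0.256 to 0.109. Between genotypes they were 0.276, 0.153 and 0.024 for saline replicates 1 to 3. For ConA replicates 1 to 4 they were -0.049, 0.197, 0.488 and 0.148. Pairs with different numbers were not compared, so this check cannot decide whether the numbers pair the samples. Leaving out single livers, the members called were 2 in WT and 2 to 4 in KO after ConA.

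Values near 0 changed sign when single livers were left out. Between genotypes in saline *Casp1* ran from -0.144 to 0.059 (above 0 without WT saline replicate 1). After ConA, *Casp1* ran from -0.010 to 0.304 (below 0 without KO replicate 2), *Pycard* from -0.031 to 0.289 (below 0 without KO replicate 1 or 3) and *Gsdmd* from -0.065 to 0.045 (above 0 without KO replicate 1 or 3 or WT replicate 2 or 4). The *Pycard* interaction was -0.011 in rescaled libraries and ran from -0.034 to 0.286 (below 0 without KO ConA replicate 1 or 3).

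The number of genes called over the whole tables moved more. In KO saline against WT saline it was 2009, 584 with no filter, 332 with all 14 libraries, 49 with the averaged pair of WT saline replicates 2 and 3, and between 45 and 2739 without single livers. Rescaling turned its 659 higher and 1350 lower calls into 1024 and 634 and moved the median of all genes from -0.10 to 0.00015. In KO ConA against WT ConA it was 45, 4 with no filter, 29 in rescaled libraries (17 higher and 12 lower, from 36 and 9), 140 with the replicate block, 640 with all 14 libraries, and 5 to 52 without single livers. The interaction gave 541 genes, 328 with no filter, 358 with the replicate block, 28 with the averaged pair, and 22 to 769 without single livers. Rescaling moved its median from 0.14 to -0.0017 and its calls from 299 higher and 242 lower to 270 and 291. The cause was not tested. TPM keep no depth, so the number of mice is the limit on precision that can be given.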
